A study of Rattus norvegicus with 6 samples.

Results

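Iron and heme handling in the liver was followed here through 10 genes chosen by name: hepcidin (Hamp), transferrin (Tf), the transferrin receptors Tfrc and Tfr2, ferroportin (Slc40a1), ferritin heavy chain (Fth1), Alas1 and Fech of heme synthesis, and the hepcidin regulators Bmp6 and Hfe. Of these, 9 were matched by name to rows of a table of 30957 genes, and Slc40a1 was not analysed here. All 9 were among the 12210 genes with enough counts to be tested. The livers came from female Sprague Dawley rats kept in a specific pathogen-free facility. In both groups the rats were first made pseudo germ-free with 3 courses of an antibiotic cocktail in drinking water, and then gavaged daily with faecal microbiota. The t-PBS rats received the microbiota of donors injected with PBS, and the t-DHEA rats that of donors injected with dehydroepiandrosterone (DHEA), an androgen precursor used to induce a state resembling polycystic ovary syndrome. Recipients were not injected with DHEA themselves, faeces of the donors were pooled, and 3 livers per group were sequenced. The groups therefore compare recipients of a pair of inocula, and p-values measure the spread between livers that shared an inoculum. Rats were also housed with a cage mate, and it is not given which of these livers came from the same cage. The study detected no DHEA in donor faeces, but more DHEA sulfate in those of the DHEA donors. It considered the amounts too low to matter. The comparison asked whether the transplant as a whole changed gene expression in the recipient liver, and microbes and other contents of the inoculum cannot be told apart.

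The liver sets the iron level of the whole body. Hepatocytes secrete hepcidin, a peptide that binds ferroportin and has it degraded, so that less iron leaves enterocytes and macrophages for the blood. Hepcidin transcription rises with iron through BMP ligands, made chiefly by liver endothelial cells, which signal on hepatocytes through BMP receptors and SMAD proteins with the help of hemojuvelin, HFE and TFR2, and it rises with inflammation through IL-6 and STAT3. Hepatocytes also make transferrin, the iron carrier of plasma, store iron in ferritin, and spend much of their iron on heme for cytochromes P450, with ALAS1 as the rate-limiting enzyme.

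The Hamp promoter is where these signals meet, and it is shown here because Hamp, Bmp6, Hfe and Tfr2 and the hepcidin control list below concern genes on the way to it. The sequence is the RefSeq one (assembly GRCr8, chr1:95300272-95300521, minus strand), the 250 bases before the start, read 5′ to 3′. Capitals mark GGCGCC, the letters of the BMP response element, and TTCTTGGAA, the letters of a STAT site. Smad7, an inhibitor of SMAD signalling that is itself switched on by it, is shown beside Hamp with its last 120 bases before the start (GRCr8, chr18:71263388-71263507, plus strand) and with GGCGCC in capitals.
Hamp: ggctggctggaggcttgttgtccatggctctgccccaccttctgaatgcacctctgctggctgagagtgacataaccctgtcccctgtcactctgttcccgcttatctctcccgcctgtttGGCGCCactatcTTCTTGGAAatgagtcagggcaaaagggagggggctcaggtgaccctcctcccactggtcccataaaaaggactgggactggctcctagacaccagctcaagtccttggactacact
Smad7: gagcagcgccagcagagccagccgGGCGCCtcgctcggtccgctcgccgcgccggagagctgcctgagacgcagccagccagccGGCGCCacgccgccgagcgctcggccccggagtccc
In Hamp the GGCGCC began 129 bases and the TTCTTGGAA 117 bases before the start, and they did not overlap. In Smad7, GGCGCC began 96 and 36 bases before the start. Both strands of the 250 bases before each start were searched. Of 33469 promoters, 8.69% held GGCGCC and 0.469% held TTCTTGGAA, so that the first is common and the second rare. GGCGCC also began 118 bases before the start of Tfrc and 207 bases before that of Fech. Neither motif was found in this window of Tf, Tfr2, Alas1, Bmp6 or Id1. CACGTG, the E-box of clock activators, and TTATGTAA, the D-box bound by Dbp and its relatives, stand in 5.59% and 0.828% of promoters and were found in none of the windows searched for these genes. Fth1 and Hfe had no entry and were not searched. A match is a description of letters and not evidence of binding.

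None of the 9 genes changed between the groups by the criteria of the study, an unadjusted p below 0.05 with a fold-change above 1.2. By edgeR's quasi-likelihood test on raw counts 0 of 9 passed, beside 604 DEGs (4.95% of all genes tested), of which 240 were higher (1.97%) and 364 lower (2.98%) in t-DHEA. The same 0 of 9 was obtained with edgeR's likelihood-ratio test, DESeq2 and limma on log2 FPKM. At an unadjusted p below 0.05 with any fold-change, 1 of 9 passed by the quasi-likelihood test, Alas1, beside 5.19% of all genes. After Benjamini-Hochberg adjustment over all genes, edgeR's quasi-likelihood test left 0 genes of the whole table below 0.05, the likelihood-ratio test 28 and DESeq2 24. The split of the DEGs differed between fits. With TMM factors 39.7% of them were higher in t-DHEA, with RLE factors 40.6% and with upper-quartile factors 39.7%. With limma on log2(FPKM + 0.1), which differs in input and model as well as in scaling, it was 26.9%. On the TMM scale the estimate was above 0 for 8 of the 9 genes, and the median log2 fold change was 0.12, beside 0.00 over all genes. With limma on FPKM it was above 0 for 7 of 9, as the sign of Hamp turned. For 1 of the 9, Alas1, every t-DHEA liver lay above every t-PBS liver, a pattern seen in 4.66% of all genes. For 1 of the 9, Bmp6, every t-DHEA liver lay below, as in 5.42% of all genes. With 3 livers against 3, an exact permutation test of 1 gene cannot give a p below 0.1.

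**Figure D1:**
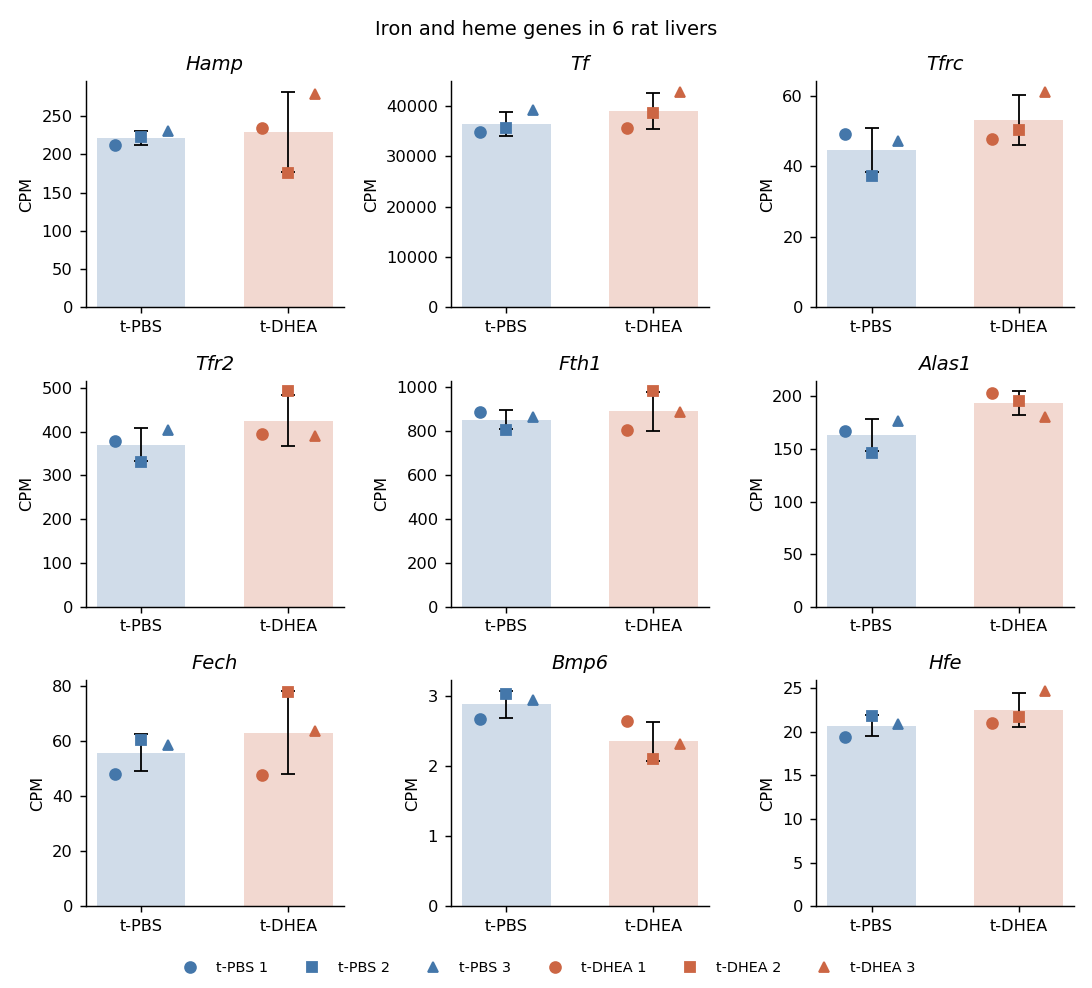
CPM (counts scaled to a common library size, linear axis from 0) of the 9 genes in each liver, with bars at the mean and error bars of 1 SD for t-PBS (blue) and t-DHEA (orange), 3 livers each. Alas1 is higher and Bmp6 lower in all 3 t-DHEA livers, and the other 7 genes overlap between groups, with Hamp more spread in t-DHEA (175 to 279 CPM) than in t-PBS (212 to 231 CPM).

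The levels of the genes lay far apart and kept their order in every liver. By FPKM, counts scaled by gene length and library total, the mean over 6 livers put genes in a fixed order. Tf came first with 11045 FPKM, followed by Fth1 with 1047 and Hamp with 627. Tfr2 followed with 104 FPKM, Alas1 with 68.6, Fech with 20.0, Tfrc with 10.2, Hfe with 6.95 and Bmp6 with 1.72. No gene's range over the 6 livers overlapped that of its neighbour in this order, although Tfrc and Hfe (ratio 1.47) and Tfr2 and Alas1 (ratio 1.51) stood close. Tfr2, the receptor that hepatocytes use as an iron sensor, thus had the higher level of the transferrin receptors, while the ligand Bmp6 had the lowest of the 9 levels. Over the 6 livers the coefficient of variation of the CPM was lowest for Fth1, at 7.54%, and highest for Fech, at 18.9%. The highest liver was between 1.22 times (Fth1) and 1.64 times (Tfrc) the lowest.

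Hepcidin itself did not separate the groups. Hamp (ENSRNOG00000021029, Rnor_6.0 chr1:89368021-89369960) was at 212, 223 and 231 CPM in t-PBS 1, 2 and 3, and at 235, 175 and 279 CPM in t-DHEA 1, 2 and 3, on 2339 to 3611 counts per liver. The t-DHEA livers held both the lowest and the highest value, and the t-PBS livers lay between them. The group means were 222 ± 9.14 and 230 ± 52.2 CPM (SD, n = 3 each). The log2 fold change was 0.05 (SE 0.16), with a 95% interval from -0.31 to 0.41 and an unadjusted p of 0.762 by edgeR's quasi-likelihood test. Fold changes from 0.808 to 1.33 thus lay within the interval. The sign rested on t-DHEA 2 and 3: the estimate was 0.21 without t-DHEA 2 and -0.11 without t-DHEA 3. In bulk tissue, fewer cells of a type and less RNA per cell cannot be told apart, for this gene and for those that follow.

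Of the ligands that drive hepcidin, Bmp6 was lower in every t-DHEA liver and Bmp2 was not. Bmp6 (ENSRNOG00000013717, chr17:26955142-27112820), the iron-responsive ligand, was at 2.66, 3.02 and 2.94 CPM in t-PBS 1, 2 and 3, and at 2.64, 2.09 and 2.32 CPM in t-DHEA 1, 2 and 3. The nearest livers of the groups, t-PBS 1 and t-DHEA 1, lay closer than a single count would set them, and the gene had 28 to 41 counts per liver. Its log2 fold change was -0.29 (SE 0.22, 95% interval -0.79 to 0.21), with an unadjusted p of 0.217 by edgeR's quasi-likelihood test, so it did not pass. Bmp2, the ligand that holds hepcidin at its basal level, was at 10.02, 20.3 and 22.2 CPM in t-PBS, and at 18.5, 17.0 and 16.6 CPM in t-DHEA. Its log2 fold change was -0.01 (SE 0.25). The liver t-PBS 1 stood at the bottom for Bmp2, and without it the estimate was -0.29 with an unadjusted p of 0.0451, past the criteria. The same liver was low for the markers of sinusoidal endothelium, the cells that make both ligands: their summed level over 11 matched genes was 374 CPM in t-PBS 1, and between 502 and 552 CPM in the other livers. Stab1, Stab2, Lyve1 and Clec4g, the defining markers, were detected in all 6 livers. The part of endothelial RNA in these values was not tested.

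The hepcidin regulators on the hepatocyte surface stayed within the spread of the livers. Hfe (ENSRNOG00000016967, chr17:43661222-43669985), the hemochromatosis protein that takes part in iron sensing, was at 19.4, 21.8 and 20.9 CPM in t-PBS, and at 21.0, 21.7 and 24.6 CPM in t-DHEA. The values of both groups overlapped, with a log2 fold change of 0.12 (SE 0.11, 95% interval -0.13 to 0.36). Tfr2 (ENSRNOG00000001407, chr12:22177382-22194299) was at 378, 330 and 403 CPM in t-PBS, and at 394, 492 and 389 CPM in t-DHEA. Its estimate of 0.20 (SE 0.13, 95% interval -0.09 to 0.49) rested largely on t-DHEA 2, without which it was 0.08. Hemojuvelin (Hjv), the BMP co-receptor, was at 154, 135 and 169 CPM in t-PBS, and at 150, 169 and 118 CPM in t-DHEA, a log2 fold change of -0.07 (SE 0.14). Tmprss6, the protease that cleaves hemojuvelin and so restrains hepcidin, ran from 594 to 696 CPM in t-PBS and from 618 to 683 CPM in t-DHEA, a log2 fold change of -0.02 (SE 0.11). The signs of the estimates for Hjv and Tmprss6 turned when single livers were left out.

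Among the transcriptional targets and inhibitors of BMP signalling, Id1 was the gene that passed the criteria. Id1, an inhibitor of bHLH factors that liver cells switch on with BMP signals, was at 5.05, 7.23 and 4.15 CPM in t-PBS 1, 2 and 3, and at 7.76, 8.68 and 7.11 CPM in t-DHEA 1, 2 and 3. The groups overlapped, since t-DHEA 3 lay just under t-PBS 2. The log2 fold change was 0.52 (SE 0.21, 95% interval 0.04 to 1.001), with an unadjusted p of 0.0375 and a Benjamini-Hochberg adjusted p of 0.957 by edgeR's quasi-likelihood test. Over the other fits the adjusted p was 0.814 or more. With a liver left out the estimate ran from 0.36 to 0.77, and Id1 no longer passed without t-PBS 1, t-PBS 3, t-DHEA 1 or t-DHEA 2. Smad7, whose promoter is shown above, was at 18.5, 22.5 and 21.1 CPM in t-PBS, and at 25.2, 23.8 and 23.4 CPM in t-DHEA. All t-DHEA livers lay above all t-PBS livers, but the log2 fold change of 0.22 (SE 0.11) had an unadjusted p of 0.0709 by edgeR's quasi-likelihood test. Without t-PBS 2 it was 0.29 and passed. Id3, a relative of Id1, had the opposite sign: it was at 52.9, 51.0 and 58.1 CPM in t-PBS, and at 45.4, 50.7 and 40.5 CPM in t-DHEA. Its log2 fold change was -0.25 (SE 0.11), with an unadjusted p of 0.0547 by edgeR's quasi-likelihood test.

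Over the whole hepcidin control list, 26 of 28 genes were tested, 1 was called higher (Id1) and none lower, with a median log2 fold change of 0.04. That is 1 of 26 past the criteria, near the 4.95% of all genes. The estimate was above 0 for 14 of the 26, and the groups did not overlap for 5, higher for Smad7 and Bmpr1a beside 4.66% of all genes, and lower for Bmp6, Smad4 and Id3, beside 5.42% of all genes. Bmpr1a, a BMP receptor, had groups that all but touched, with 13.4 CPM in both t-PBS 3 and t-DHEA 3. Of the inflammatory arm, Il6r, Il6st, Stat3 and Socs3 had log2 fold changes of 0.14, -0.10, 0.08 and -0.25 and did not pass. Il6 was listed at 0 in all livers, and Erfe, the erythroid hormone that lowers hepcidin, had at most 1 count. A count of 0 allows up to 3 counts, or 0.21 to 0.248 CPM, and this limit covers counting error only. Pcbp1, an iron chaperone, and Nfs1, a cysteine desulfurase that nearly every cell uses, were listed at 0 as well, so a 0 in this table need not mean expression under that limit.

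**Figure D2:**
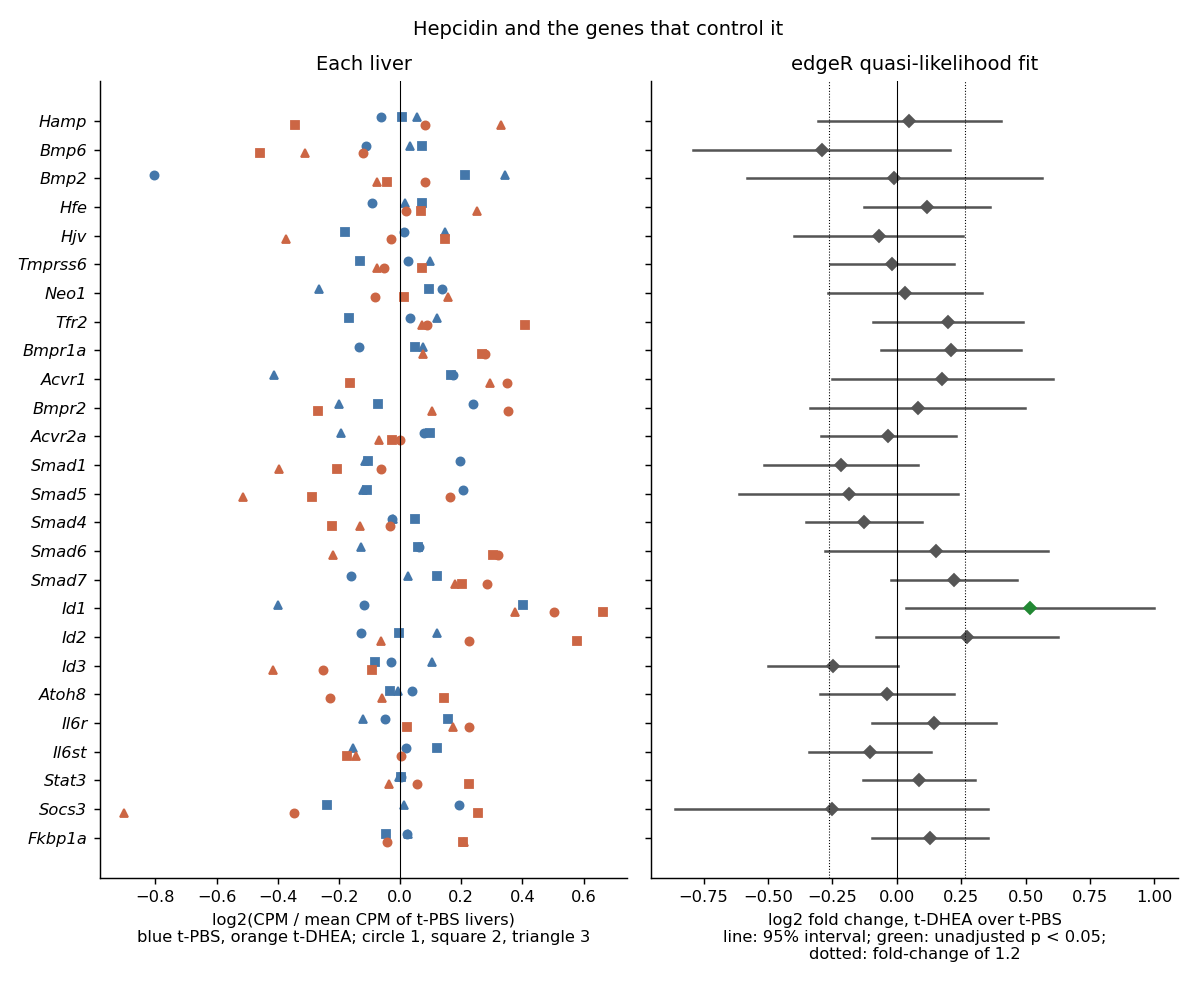
Hepcidin and 25 genes of its control. Left, the log2 ratio of each liver's CPM to the mean CPM of the t-PBS livers (blue t-PBS, orange t-DHEA). Right, the log2 fold change of t-DHEA over t-PBS with its 95% interval by edgeR's quasi-likelihood fit, and dotted lines at a fold-change of 1.2. The interval of Id1 (green) lies above 0, while those of Hamp, Bmp6, Bmp2 and the co-receptors cross 0.

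Transferrin and its receptor Tfrc showed small positive estimates that did not pass. Tf (ENSRNOG00000030625, chr8:111673547-111721333) was at 34770.4, 35559 and 39146 CPM in t-PBS, and at 35727, 38571 and 42859 CPM in t-DHEA. The means were 36492 ± 2332 and 39052 ± 3590.1 CPM (SD, n = 3 each), and the log2 fold change was 0.10 (SE 0.15, 95% interval -0.25 to 0.44). Tfrc (ENSRNOG00000001766, chr11:71397383-71419223), which takes up transferrin-bound iron and whose mRNA is stabilised when iron is scarce, was at 49.1, 37.4 and 47.3 CPM in t-PBS 1, 2 and 3, and at 47.9, 50.4 and 61.2 CPM in t-DHEA 1, 2 and 3. One liver per group set most of the difference, the low t-PBS 2 and the high t-DHEA 3. The log2 fold change of Tfrc was 0.25 (SE 0.14, 95% interval -0.06 to 0.57), with an unadjusted p of 0.0998 by edgeR's quasi-likelihood test. Without t-PBS 2 it was 0.14, and without t-DHEA 3 it was 0.15.

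The ferritin chains, which form the iron store of the cell and whose translation iron controls, had estimates of opposite sign. Fth1 (ENSRNOG00000022619, chr1:226030938-226033228) was at 885, 803 and 864 CPM in t-PBS, and at 802, 979 and 886 CPM in t-DHEA, with overlapping groups. Its log2 fold change was 0.06 (SE 0.11, 95% interval -0.19 to 0.32). The light chain Ftl1 was at 366, 369.5 and 409 CPM in t-PBS, and at 304, 277 and 383 CPM in t-DHEA. The log2 fold change of Ftl1 was -0.25 (SE 0.13), with an unadjusted p of 0.0980 by edgeR's quasi-likelihood test, and without t-DHEA 3 it was -0.39 and passed. Both genes have near-identical copies elsewhere in the genome and Fth1 overlaps Best1, which had 0 counts, so both values are uncertain to the extent that the counting split reads. The iron regulatory proteins, which bind the mRNAs of Tfrc and ferritin when iron is low, also did not pass. Aco1 ran from 163 to 189 CPM in t-PBS and from 160 to 191 CPM in t-DHEA, a log2 fold change of 0.03 (SE 0.11). Ireb2 was at 54.5, 59.6 and 48.9 CPM in t-PBS, and at 65.4, 58.7 and 61.4 CPM in t-DHEA, a log2 fold change of 0.19 (SE 0.10).

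Of the wider list of iron uptake, storage and export, 25 of 29 matched genes were tested, and Lcn2 and Steap2 fell while none rose. The median log2 fold change was 0.03, and 14 of 25 estimates were above 0. These 2 of 25 stand beside 2.98% of all genes lower in t-DHEA. Lcn2, lipocalin 2, which binds bacterial siderophores and so withholds iron from microbes, was at 8.62, 6.05 and 4.68 CPM in t-PBS 1, 2 and 3, and at 3.47, 1.95 and 3.86 CPM in t-DHEA 1, 2 and 3. The highest t-DHEA value was under the lowest t-PBS value. Lcn2 fell to 0.478 of the t-PBS level (log2 fold change -1.07, SE 0.30, 95% interval -1.76 to -0.37), with an unadjusted p of 0.00698 and a Benjamini-Hochberg adjusted p of 0.805 by edgeR's quasi-likelihood test. It passed the criteria in 6 of 6 fits with a liver left out, with estimates from -1.26 to -0.80, and over all other fits its adjusted p ran from 0.176 to 0.998. The gene had 26 to 123 counts per liver. Steap2, a metalloreductase that reduces iron after uptake, had 18, 18 and 13 counts in t-PBS and 11, 1 and 2 counts in t-DHEA. Its log2 fold change was -1.67 (SE 0.66), with an unadjusted p of 0.0320 and a Benjamini-Hochberg adjusted p of 0.957 by edgeR's quasi-likelihood test. With a liver left out the estimate ran from -3.28 (without t-DHEA 1) to -1.17 (without t-DHEA 2), and it no longer passed without t-PBS 1, t-PBS 2, t-DHEA 2 or t-DHEA 3. Pcbp2, an iron chaperone, had separate groups (79.0 to 85.1 CPM in t-PBS and 70.2 to 75.6 CPM in t-DHEA) and a log2 fold change of -0.19 (SE 0.09) that did not pass.

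Lcn2 is also an acute phase gene of the liver. Of 15 tested genes of the acute phase list it was the only one past the criteria by this fit, beside 4.95% of all genes. The list's median log2 fold change was 0.10. Haptoglobin (Hp) and hemopexin (Hpx), which bind free hemoglobin and heme in plasma, had log2 fold changes of 0.18 and 0.17, with unadjusted p of 0.268 and 0.343 by edgeR's quasi-likelihood test. In Kupffer cells, which recycle iron from red cells, 1 of 12 tested markers was called lower (Lyz2, log2 fold change -0.44), beside 2.98% of all genes. The estimate was above 0 for 9 of the 12 and below 0 for 3. The summed level of the 14 Kupffer markers was 720 to 888 CPM in t-PBS and 771 to 1033 CPM in t-DHEA, and Clec4f, Marco, Cd163 and Vsig4 were detected in every liver. The part of Kupffer cell RNA in the values of Lcn2 and Hamp was not tested.

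Alas1 was the gene of the 9 nearest to the criteria. Alas1 (ENSRNOG00000056596, chr8:114927722-114940177) was at 167, 146 and 176 CPM in t-PBS 1, 2 and 3, and at 203, 196 and 181 CPM in t-DHEA 1, 2 and 3. Every t-DHEA liver lay above every t-PBS liver, and the gap between t-PBS 3 and t-DHEA 3 was the narrowest. The means were 163 ± 15.5 and 193 ± 11.4 CPM (SD, n = 3 each). The fold change was 1.18 (95% interval 1.01 to 1.395), a log2 fold change of 0.24 (SE 0.10). The unadjusted p was 0.0440 and the Benjamini-Hochberg adjusted p 0.957 by edgeR's quasi-likelihood test, and the fold-change lay under the 1.2 of the criteria. The exact permutation test over livers gave p = 0.1, the smallest possible (two-sided). Groups that do not overlap fix this value, which Bmp6 had as well, so it adds nothing to the separation. Leaving out t-PBS 3 gave 0.30 and leaving out t-DHEA 3 gave 0.30, both past the criteria, while the other 4 such fits gave 0.17 to 0.26 and did not pass.

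The other enzymes of heme synthesis did not pass either. Alad, the step after Alas1, was at 84.1, 83.2 and 108 CPM in t-PBS, and at 97.9, 122 and 97.6 CPM in t-DHEA, a log2 fold change of 0.20 (SE 0.14), and 0.34 and past the criteria without t-PBS 3. Fech (ENSRNOG00000018053, chr18:59941992-59975192), ferrochelatase, which inserts iron into protoporphyrin in the last step, was at 48.0, 60.4 and 58.8 CPM in t-PBS 1, 2 and 3, and at 47.7, 77.9 and 63.9 CPM in t-DHEA 1, 2 and 3. The liver t-DHEA 2 stood above the rest, and t-PBS 1 and t-DHEA 1 were alike and low. The log2 fold change of Fech was 0.18 (SE 0.17, 95% interval -0.21 to 0.58). Without t-DHEA 2 it was 0.01, and without t-DHEA 1 it was 0.35 and past the criteria, with an unadjusted p of 0.0419 by edgeR's quasi-likelihood test. Over the 15 genes of heme synthesis, all tested, 0 passed by this test, beside 4.95% of all genes. It was also 0 with the likelihood-ratio test, DESeq2 and limma. At any fold-change 1 of 15 had an unadjusted p below 0.05 by the quasi-likelihood test (Alas1), near the 5.19% of all genes. The median log2 fold change was 0.06, and 10 of 15 estimates were above 0.

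**Figure D3:**
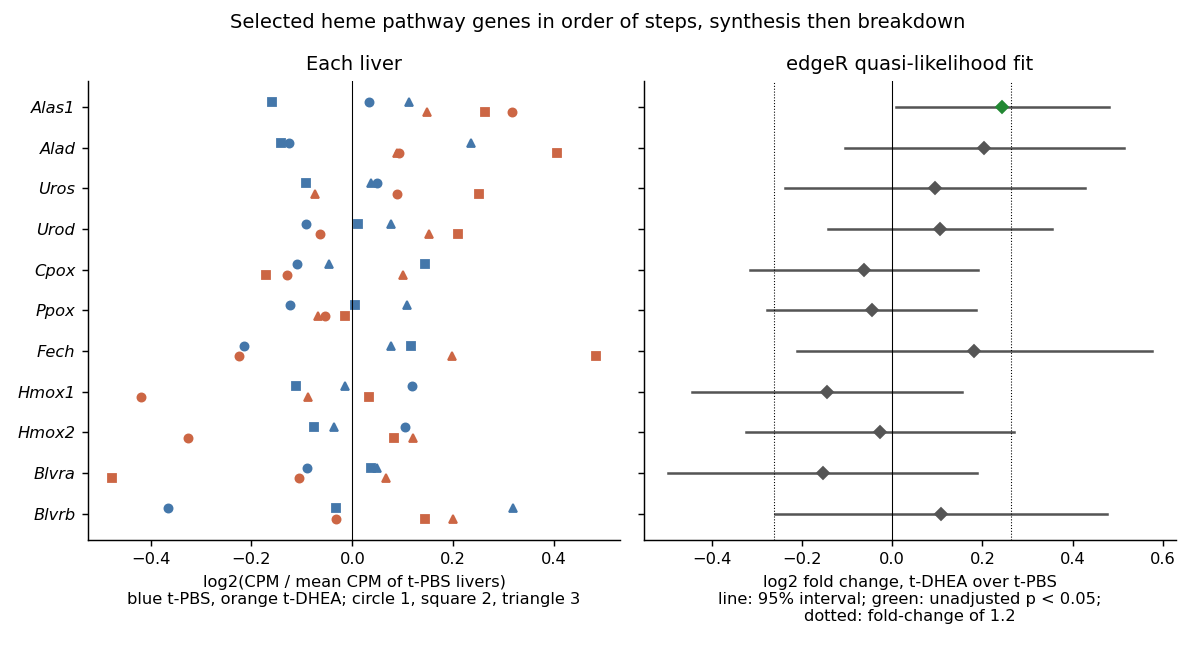
Selected heme pathway genes in the order of their steps, Alas1 to Fech for synthesis and Hmox1 to Blvrb for breakdown. Left, the log2 ratio of each liver's CPM to the mean CPM of the t-PBS livers (blue t-PBS, orange t-DHEA). Right, the log2 fold change with its 95% interval by edgeR's quasi-likelihood fit, and dotted lines at a fold-change of 1.2. Alas1 (green, 0.24) is the gene whose interval lies above 0, and its estimate stays inside the dotted lines.

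Heme breakdown showed no gene past the criteria. Of 13 tested genes for heme breakdown and transport, 0 passed by edgeR's quasi-likelihood test, the likelihood-ratio test, DESeq2 and limma, 0 had an unadjusted p below 0.05 at any fold-change, and the median log2 fold change was 0.00. By the quasi-likelihood test 4.95% of all genes passed and 5.19% had an unadjusted p below 0.05. Hmox1, the inducible heme oxygenase, was at 47.8, 40.8 and 43.6 CPM in t-PBS, and at 32.9, 45.1 and 41.5 CPM in t-DHEA, a log2 fold change of -0.14 (SE 0.13, 95% interval -0.44 to 0.16). The lowest p in the list belonged to Abcg2, an exporter of porphyrins, with a log2 fold change of 0.53 (SE 0.30) and an unadjusted p of 0.118 by edgeR's quasi-likelihood test. Next was Lrp1, the receptor for heme-hemopexin, with 0.26 (SE 0.18). Without t-DHEA 3 both passed, with 0.79 and 0.45. For iron-sulphur cluster assembly, the other large use of iron in the cell, 0 of 19 tested genes passed by any of these tools. That stands beside 4.95% of all genes by the quasi-likelihood test, and the list's median log2 fold change was 0.01. Ciao1, of the cytosolic assembly complex, came nearest in that list. It was at 13.2, 14.2 and 14.3 CPM in t-PBS, and at 16.9, 16.0 and 16.6 CPM in t-DHEA, a log2 fold change of 0.25 (SE 0.10). Its unadjusted p was 0.0393 by edgeR's quasi-likelihood test, with a fold-change under that of the criteria. Ciao1 overlaps Tmem127, so its counts are uncertain. Iba57 followed with 0.20 (SE 0.12).

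**Figure D4:**
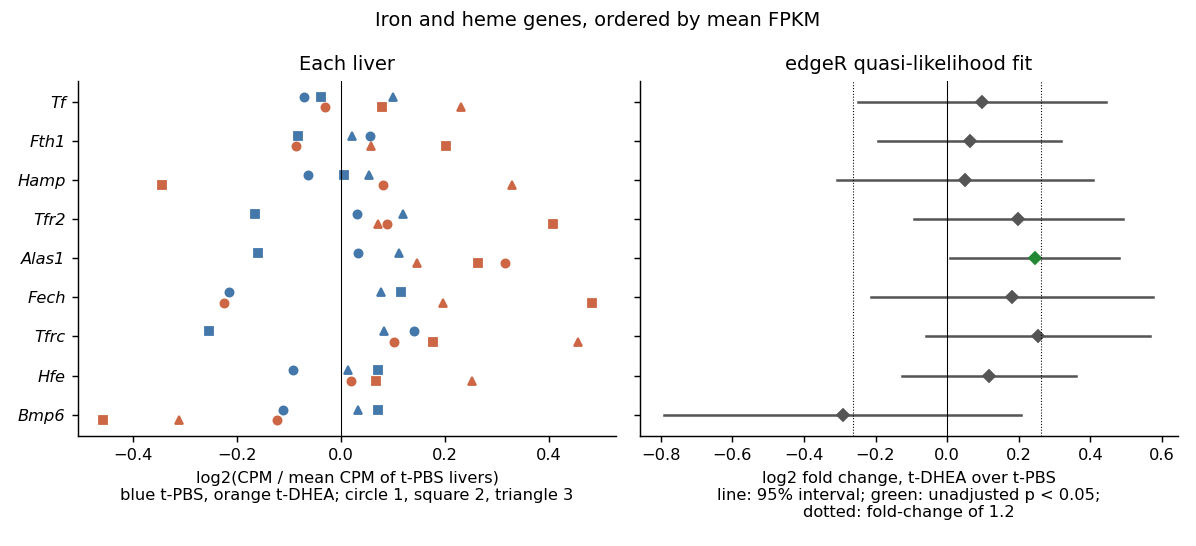
The 9 genes in the order of their mean FPKM. Left, the log2 ratio of each liver's CPM to the mean CPM of the t-PBS livers (blue t-PBS, orange t-DHEA). Right, the log2 fold change with its 95% interval by edgeR's quasi-likelihood fit, and dotted lines at a fold-change of 1.2. The estimates run from -0.29 (Bmp6) to 0.25 (Tfrc), and the interval of Alas1 (green) is the one that leaves out 0.

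Alas1 and Fech were set beside other genes of the same livers. Alas1 is known as a target of the circadian clock and of nutrient signals. Of 9 tested clock outputs and repressors listed with Dbp, 4 rose (Per3, Per2, Tef and Dbp), beside 1.97% of all genes. Of 6 genes in phase with Arntl 1 fell, Arntl, beside 2.98% of all genes. Both lists were chosen with earlier results of these data known, so these counts are a description. Dbp was at 32.0, 29.1 and 62.4 CPM in t-PBS 1, 2 and 3, and at 112, 41.7 and 123 CPM in t-DHEA 1, 2 and 3. Per3 was at 12.4, 10.3 and 13.8 CPM in t-PBS, and at 32.3, 15.9 and 29.3 CPM in t-DHEA, and Per2 at 8.34, 8.41 and 9.44 CPM in t-PBS, and at 21.8, 11.7 and 13.5 CPM in t-DHEA. Arntl was at 36.7, 29.1 and 26.0 CPM in t-PBS, and at 14.1, 22.4 and 13.7 CPM in t-DHEA. The liver t-DHEA 2 lay within the t-PBS range for Dbp and for Tef (39.8 CPM, beside 29.2 to 41.1 CPM in t-PBS). It lay outside that range for Per3, Per2 and Arntl, as it did for Alas1. Over the tested genes listed with Dbp, the mean log2(CPM + 1) of t-DHEA 2, 4.09, lay within the t-PBS range of 4.04 to 4.38. The log2 fold changes of Per3, Per2, Tef, Dbp and Arntl were 1.09, 0.84, 0.67, 1.16 and -0.87, with unadjusted p of 0.00181, 0.00459, 0.00829, 0.0194 and 0.00257 by edgeR's quasi-likelihood test. Their Benjamini-Hochberg adjusted p in that test ran from 0.796 to 0.909. Per3, Per2, Tef and Arntl passed the criteria in 6 of 6 fits with a liver left out, and Dbp in 2 of 6, those without t-PBS 3 and without t-DHEA 2. Of 8 tested regulators of Alas1, among them Ppargc1a, Foxo1 and Nr1i3, 0 passed by edgeR's quasi-likelihood test, with 0 at an unadjusted p below 0.05 and 0 by DESeq2, although Nr1d1 passed in the fit with a replicate block and in that without t-PBS 3. Over all genes 4.95% passed and 5.19% had an unadjusted p below 0.05 by the quasi-likelihood test. Nr1d1, a heme-binding clock repressor that overlaps Thra, had a log2 fold change of 0.32 (SE 0.20), and Nrf1 one of -0.19 (SE 0.13). The part of the clock in the level of Alas1 was not tested.

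Fech is shared by hepatocytes and maturing red cells. Of 6 tested red cell genes, in a list chosen with earlier results of these data known, the 4 globin genes rose, beside 1.97% of all genes called higher. The log2 fold changes of the globin genes Hba2, Hba1, Hbb-b1 and Hbb were 0.96, 0.81, 1.02 and 0.70. Their unadjusted p were 0.00656, 0.0107, 0.0107 and 0.0421 by edgeR's quasi-likelihood test, with Benjamini-Hochberg adjusted p from 0.805 to 0.957. Reads can be shared between the alike genes of a family, Hba1 with Hba2 and Hbb with Hbb-b1. Hbb-b1 also overlaps AC113925.2, which had 2086 counts over all livers, so its counts are uncertain. Hbb did not pass with DESeq2 or limma, nor without t-PBS 2, t-PBS 3 or t-DHEA 2 (0.29 without the last). The summed red cell level was 373, 391 and 249.7 CPM in t-PBS, and 417, 827 and 528 CPM in t-DHEA, with its highest value in t-DHEA 2. Alas2, the erythroid counterpart of Alas1, was at 2.66, 1.62 and 1.74 CPM in t-PBS, and at 1.49, 4.11 and 2.24 CPM in t-DHEA, also highest in t-DHEA 2. Its log2 fold change was 0.38 (SE 0.39), and -0.10 without that liver. Slc4a1, the band 3 protein of red cells, had -0.11 (SE 0.21), and Gata1 was listed at 0 in all livers. The part of red cell RNA in the level of Fech was not tested. Hepatocyte markers were high in all livers, with albumin at 10.6% to 13.5% of the counts, and 1 of 12 was called (Tat, higher, log2 fold change 0.68). In the endothelial list 1 of 11 was called (Kdr, higher, 0.36, not past the criteria with limma or without t-PBS 1, t-DHEA 1 or t-DHEA 2), and in the stellate list 0 of 10 by each tool run. These counts stand beside 4.95% of all genes called by edgeR's quasi-likelihood test.

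**Figure D5:**
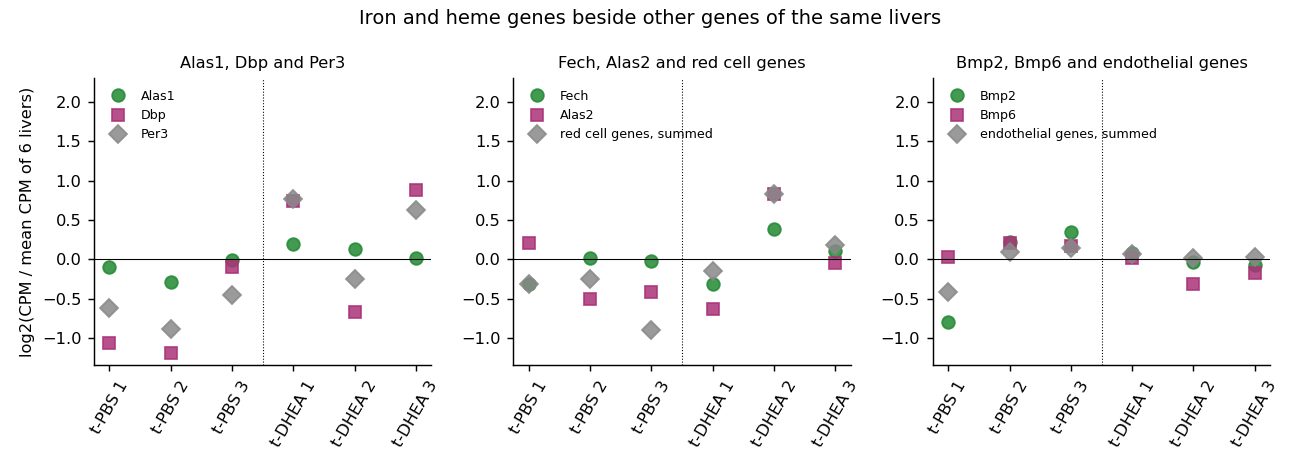
The log2 ratio of each liver's CPM to the mean of all 6 livers for Alas1 with Dbp and Per3, for Fech with Alas2 and the summed red cell genes, and for Bmp2 and Bmp6 with the summed endothelial genes. Fech, Alas2 and the red cell sum (827 CPM) are highest in t-DHEA 2, in that liver Dbp (41.7 CPM) lies within the t-PBS range while Per3 (15.9 CPM) and Alas1 lie above theirs, and Bmp2 and the endothelial sum (374 CPM) are lowest in t-PBS 1.

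Single livers carried much of what the 9 genes showed. The liver t-DHEA 2 had the lowest Hamp and Bmp6 of all 6 livers and the highest Tfr2, Fth1 and Fech. The liver t-DHEA 3 had the highest Hamp, Tf, Tfrc and Hfe, and t-PBS 2 the lowest Tfrc, Tfr2 and Alas1. The total counts of the livers, 12348511 to 14316886, overlapped between groups. As a description, log2 CPM over the 6 livers was compared among 10865 tested genes with a standard symbol and at least 1 mean CPM. The genes that followed Hamp most closely were Zbtb2 (Pearson r = 0.995), Wdr55 (0.987) and Gnai3 (0.985). For Alas1 they were Ndufaf6 (0.988), Arhgap26 (0.985) and Osbpl1a (0.983). With 6 points that share libraries and depth, and so many genes compared, correlations of this size carry no test, and none of these genes belonged to the iron or heme lists.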

How the data were processed

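Paired-end TruSeq libraries of liver RNA were sequenced on a HiSeq Xten. The authors filtered reads with Seqtk, mapped them to Rnor_6.0 with HISAT2 (2.0.4) and used StringTie (1.3.0), and deposited raw counts and FPKM values per gene. The annotation release and strandedness are not given in the sources used here, so overlapping genes are uncertain. The deposited counts, 12348511 to 14316886 per liver, were fitted here with edgeR 4.0.16 (R 4.3.3): TMM factors, the default low-count filter, and a quasi-likelihood test between the groups without covariates. The study names edgeR on FPKM with the same criteria, and a count model was fitted to counts only. CPM use TMM-scaled library sizes. SEs come from the test statistic. The deposited FPKM served for levels between genes. The smallest chi-square per degree of freedom between livers was 15.3, so none was a duplicate. The genes and the 14 lists (206 of 213 entries matched, 3 through an older symbol) were chosen with earlier results of these data known. Named genes were the 9 genes, fixed partners (such as Hjv and Ftl1), those past the criteria in each list (up to 4), or else the 2 with the lowest p, and the closest 3 to Hamp and Alas1. Id3, Pcbp2, Bmpr1a, Smad4, Hp, Hpx, Slc4a1 and genes listed at 0 were added after their values were seen. Il6r, Il6st, Stat3, Socs3, Erfe, Ppargc1a, Foxo1 and Nr1i3 were also named outside that rule. Alternatives were the likelihood-ratio test, DESeq2 1.42.0, limma 3.58.1 on log2(FPKM + 0.1) or log2(FPKM + 1), RLE and upper-quartile factors, no filter, a minimum of 10 counts per liver, fold-changes above 1.5 or any, CPM for levels, a replicate block, and each liver left out. The fits were tested on simulated data. Some values of single genes are not reported here.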

Additional observations from a re-analysis of the deposited data

How the results depend on the processing

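The count of DEGs was 604, ran from 414 (DESeq2) to 776 (no filter) with other fits and from 514 to 747 with a liver left out, and was 275 at a fold-change above 1.5. Of the 9 genes, 0 passed in every other fit of all 6 livers. When any fold-change was allowed, 1 (Alas1) passed by the quasi-likelihood test, but Alas1 did not with the likelihood-ratio test, limma or the replicate block. With a liver left out 0 to 1 passed: Alas1 without t-PBS 3 or t-DHEA 3, and Fech without t-DHEA 1. With CPM in place of FPKM, 2 genes changed rank, Hamp and Tfr2. Replicate numbers did not pair the samples (correlations of deviations -0.052, -0.063 and -0.039), and the replicate block gave 539 DEGs and 0 of the 9 genes. Estimates near 0 turned sign. For Hamp, limma gave -0.0141 and -0.0140, and fits with a liver left out ran from -0.108 to 0.214. For Fth1 the latter ran from -0.00898 to 0.132, for Hjv from -0.188 to 0.0658, for Tmprss6 from -0.0764 to 0.0334 and for Alas2 from -0.104 to 0.659. Aco1 had -0.0136 and -0.0133 with limma and -0.0255 to 0.0949 with a liver left out. Bmp2 had 0.0294 and 0.0133 with limma, 0.0489 with the replicate block, and -0.290 to 0.198 with a liver left out. The cause was not tested. Steap2 has no value where 10 counts were required in every liver. With a liver left out, the DEGs numbered 0 to 2 in the hepcidin, heme synthesis and heme breakdown lists and 1 to 3 in the iron list. Counts of 28 to 41 per liver limit Bmp6.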
